A study of Arabidopsis thaliana with 9 samples.

Results

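The genes described here are 49 Arabidopsis thaliana genes of 2 enzyme families, 20 beta-glucosidase (BGLU) genes and 29 serine carboxypeptidase-like (scpl) genes. They were chosen by symbol alone: every probe set annotated to a single gene whose symbol is BGLU or scpl followed by a number was taken, and each such gene had 1 probe set. The 49 genes are among 13356 genes with a 1-gene probe set, and the fits ran over 22746 probe sets. The reference annotation holds 40 genes with a BGLU symbol and 49 with an scpl symbol, and those without a 1-gene probe set in the platform annotation were not analysed here.

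RNA came from the last 0.5 mm of primary roots of untreated seedlings, dissected by hand 4 days after germination, and each array was an Affymetrix ATH1 array with a biotin label. There were 3 arrays per genotype, each from a pool of about 200 tips. The quadruple mutant had the alleles cna-2, phb-13 and rev-6 and a PHV allele given both as phv-6 and as phv-11 (its titles write phb1 for phb-13). In the triple mutant the alleles were cna-2, phb-13, phv-11, and wild type was Col er-2. Quadruple homozygotes came from parents heterozygous for rev-6 and were recognised by radial cotyledons, while the labels mention no sorting step for triple-mutant or wild-type seedlings. CNA, PHB, PHV and REV encode HD-ZIP III transcription factors, known for their part in organ polarity and vascular patterning. The labels call the arrays biological replicates without saying how plates or plants were divided, so p-values measure the spread between these pools.

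Beta-glucosidases of this kind are family 1 glycoside hydrolases that cut glucose from small molecules. In plants the freed aglycones include lignin precursors, hormones, coumarins and defence compounds, so a glucosidase often acts on a pool stored as an inactive glucoside. Serine carboxypeptidase-like proteins share the fold of serine carboxypeptidases, which trim amino acids from the carboxyl end of proteins. Some plant members instead work as acyltransferases that move acyl groups from glucose esters onto other metabolites, so both families meet glucose conjugates, one as substrates and the other as acyl donors.

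Values are log2 signals, and a difference of 1 is a 2-fold difference. A gene was called changed at a limma adjusted p under 0.05, with Benjamini-Hochberg adjustment over all probe sets. Array medians were 5.91 to 5.95 for quadruple-mutant, 5.92 to 5.95 for triple-mutant and 5.79 to 5.89 for wild-type arrays. PHV, the 1 mutated gene measured, had log2 signals of 5.20, 5.22 and 5.03 in the quadruple mutant, 4.71, 4.77 and 4.76 in the triple mutant and 7.27, 7.14 and 7.28 in wild type. It was lower in both mutants, with log2 changes from wild type of -2.08 in the quadruple mutant (limma adjusted p = 5.70e-06) and -2.48 in the triple mutant (limma adjusted p = 8.49e-07), and 0.40 higher in quadruple than in triple mutants (limma adjusted p = 0.0405). CNA, PHB and REV were not analysed here, so the label of the rev-6 allele was not checked. The mean of 9 hybridization spike-in controls was 9.70 to 9.83 on quadruple-mutant arrays, 9.92 to 10.02 on triple-mutant arrays and 9.61 to 9.84 on wild-type arrays. The triple-mutant arrays were thus the highest of the 9 for a signal that does not come from the plant, and its part in the differences below was not tested.

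Arrays with the same replicate number deviated together from their genotype means across all probe sets, with correlations of 0.217 to 0.515 between quadruple and triple mutants and 0.273 to 0.408 between the triple mutant and wild type. These numbers were therefore read as pairs, and a fit with the replicate number as a block is given beside the results it changes. Between the quadruple mutant and wild type the correlation was 0.0427 for replicate 1, so those arrays were not read as pairs; the block there called 0.295% of all probe sets, 0.22% higher and 0.0747% lower, and its calls are given only with the other alternatives.

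Of the labelled tissue's markers, 3 of 9 quiescent-centre and stem-cell genes were measured. Their mean log2 signal was 7.10 to 7.28 on quadruple-mutant, 6.50 to 6.71 on triple-mutant and 6.66 to 6.90 on wild-type arrays. Relative to the triple mutant, the quadruple mutant was higher by 1.33 for AGL42, expressed in the quiescent centre (limma adjusted p = 0.00149), and by 0.45 for BBM, a transcription factor of root stem cells (limma adjusted p = 0.0353). The third, JKD, differed by 0.05 (limma adjusted p = 0.949). Between the triple mutant and wild type AGL42 differed by -0.63 (limma adjusted p = 0.0737 without and 0.00516 with the replicate block). BBM and JKD differed there by 0.15 and -0.09 (limma adjusted p = 0.526 and 0.709). Between the quadruple mutant and wild type the differences were 0.70 for AGL42, 0.60 for BBM and -0.03 for JKD (limma adjusted p = 0.203, 0.0947 and 0.919). OPS, a phloem gene and the 1 vascular marker of 9 measured, had 4.28 to 4.75 in the quadruple mutant, 4.91 to 5.27 in the triple mutant, and in wild type 4.48 to 4.65, with a quadruple-minus-triple difference of -0.61 (limma adjusted p = 0.05002 without and 0.0375 with the replicate block). AGL42 and BBM were thus called in the comparison in which BGLU44 and scpl18 were. Their part in those changes was not tested, and a different share of cells and a different amount of RNA per cell cannot be told apart in such pools. The 2 root-hair expansin genes measured, EXPA7 and EXPA18, lay between 3.48 and 4.14 on all arrays. Root-cap, endodermis and leaf markers were not analysed here.

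Among the genes taken by symbol, the families differed in how many gave a bright signal. Of the 20 BGLU genes, 4 had a mean of at least 5 over the 9 arrays: BGLU15, BGLU16, BGLU25 and BGLU42. The other 16 lay under the array median on every array. Outside these 20, PYK10, also called BGLU23, lay at 11.88 to 12.72 and the probe set shared by BGLU21 and BGLU22 at 11.82 to 13.00. ATA27, a relative also named otherwise, lay at 2.93 to 3.19. Of the 29 scpl genes, 15 had a mean of at least 5, against 57.2% of all probe sets. Brightness also depends on the probes, and no detection calls were used, so a dim signal is not proof of an absent transcript, and a brighter gene need not have more transcript.

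**Figure D1:**
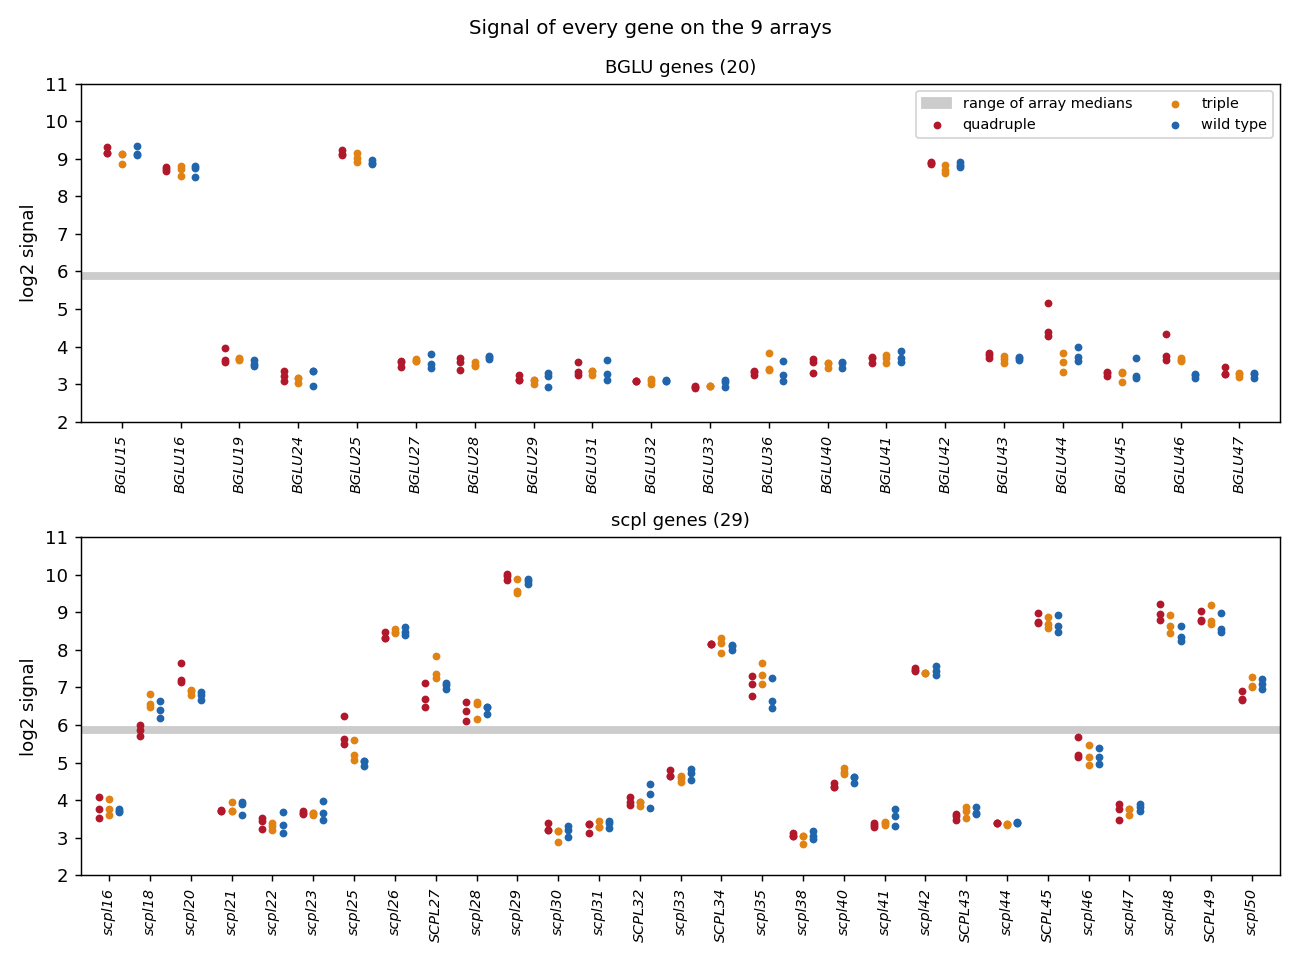
Log2 signal of each of the 20 BGLU genes (top) and 29 scpl genes (bottom) on the 9 arrays, with quadruple-mutant, triple-mutant and wild-type arrays side by side as points and the range of the array medians as a grey band. The 4 bright BGLU genes lie above the band and the other 16 below it, whereas the scpl genes spread over both sides.

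The 4 bright glucosidase genes were nearly level across genotypes. BGLU15 (AT2G44450), whose enzyme hydrolyses flavonol glycosides, had log2 signals of 9.15, 9.30 and 9.16 in the quadruple mutant, 9.12, 8.87 and 9.13 in the triple mutant and 9.13, 9.11 and 9.34 in wild type. BGLU42 (AT5G36890), known for a role in root coumarin release under low iron, had 8.88, 8.86 and 8.91 in the quadruple mutant, 8.62, 8.69 and 8.82 in the triple mutant and 8.77, 8.83 and 8.91 in wild type. For both genes the quadruple-mutant arrays all lay above the triple-mutant arrays and overlapped wild type. The quadruple-minus-triple differences were 0.17 for BGLU15 (95% interval -0.06 to 0.40, limma adjusted p = 0.680) and 0.17 for BGLU42 (95% interval -0.01 to 0.36, limma adjusted p = 0.519). BGLU16 (AT3G60130) had 8.67, 8.79 and 8.72 in the quadruple mutant, 8.81, 8.55 and 8.74 in the triple mutant and 8.80, 8.51 and 8.75 in wild type, with overlapping groups. BGLU25 (AT3G03640) had 9.23, 9.11 and 9.09 in the quadruple mutant, 8.92, 9.01 and 9.15 in the triple mutant and 8.86, 8.98 and 8.90 in wild type. Its quadruple-mutant arrays stood above the wild-type arrays by a mean of 0.23 (95% interval 0.03 to 0.43), a difference that was not called (limma adjusted p = 0.506).

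Both called members came from the comparison of quadruple with triple mutants, which the labels set apart by rev-6 and, in the genotype and source labels, also by the PHV allele (phv-6 against phv-11). BGLU44 was higher and scpl18 lower in quadruple mutants, 2 of the 49 genes, where 2.22% of all probe sets were called. By direction, 1 of 20 BGLU genes was called higher, where 0.554% of all probe sets were, and 1 of 29 scpl genes was called lower, where 1.66% of all probe sets were. With 1 gene in each family these shares rest on a single call. That both pass here was known when the families were chosen.

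BGLU44 (AT3G18080) encodes a glucosidase with reported activity on beta-mannosides. Its log2 signal was 4.38, 4.28 and 5.16 in the quadruple mutant, 3.58, 3.33 and 3.83 in the triple mutant and 3.72, 3.61 and 3.99 in wild type. All 3 quadruple-mutant arrays lay above the other 6, and replicate 3 was the highest in each genotype. Its signal was 2.03-fold higher in quadruple than in triple mutants, a log2 change of 1.02 (SE 0.22, 95% interval 0.53 to 1.52, limma adjusted p = 0.0435). With the replicate block the adjusted p was 9.10e-04. The call held in 1 of the 9 fits that left out 1 array, the one without wild-type replicate 3. Leaving out any quadruple-mutant array gave an adjusted p of 0.0557 to 0.0876, any triple-mutant array 0.0532 to 0.170, and wild-type replicates 1 and 2 gave 0.0674 and 0.0602. The log2 change stayed between 0.75 and 1.19 over these fits, and the call also ended after quantile normalization (0.0578) and over the 6 arrays alone (0.0787). The call held after median centring (0.0285), with robust estimation and a variance trend (0.0296) and with array weights (0.00617). It also held without all 3 arrays numbered 3. All BGLU44 signals lay under the array medians.

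BGLU43 (AT3G18070) is the next protein-coding gene to BGLU44 on the chromosome. It had log2 signals of 3.82, 3.69 and 3.78 in the quadruple mutant, 3.66, 3.57 and 3.74 in the triple mutant and 3.69, 3.73 and 3.64 in wild type. The groups overlapped, and the quadruple-minus-triple difference was 0.10 (95% interval -0.08 to 0.29, limma adjusted p = 0.812). The upper end of that interval lies under the lower end for BGLU44, 0.53. The difference between these neighbours was not itself tested. In all, 11 BGLU genes and 6 scpl genes have another measured member of their family nearby, with at most 2 protein-coding genes between. Next to each other on chromosome 2, BGLU15, BGLU28 and BGLU29 differed by 0.17, 0.02 and 0.08 between quadruple and triple mutants. The pair BGLU45 and BGLU46 differed by 0.05 and 0.26, BGLU31 and BGLU32 by 0.07 and 0.01, and BGLU16 and BGLU27 by 0.03 and -0.08. Among scpl genes, scpl22 and scpl23 differed by 0.10 and 0.03, and scpl26 and scpl28 by -0.12 and -0.07. None of these neighbours was called. Probe sets of close relatives can pick up each other's transcripts, which was not examined because probe sequences were not used here.

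The scpl18 gene (AT1G33540) had log2 signals of 6.00, 5.72 and 5.87 in the quadruple mutant, 6.56, 6.49 and 6.82 in the triple mutant and 6.63, 6.18 and 6.41 in wild type. The quadruple-mutant arrays were the 3 lowest of the 9, while triple-mutant and wild-type arrays overlapped. Against the triple mutant the level was 1.69-fold lower, a log2 change of -0.76 (SE 0.13, 95% interval -1.06 to -0.46, limma adjusted p = 0.0179). It was the 1 member past the F-test over the 3 genotypes (limma adjusted p = 0.0356), which 2.08% of all probe sets passed. The call ended without triple-mutant replicates 1 (adjusted p = 0.0624) or 3 (0.0534) and without quadruple-mutant replicates 2 (0.0867) or 3 (0.0628), and it held in the other 5 fits that left out 1 array. Without all 3 arrays numbered 3 the change was -0.67 and the adjusted p 0.135.

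The replicate block brought in 3 more scpl genes between the quadruple and the triple mutant, so that, BGLU44 and scpl18 included, 5 of the 49 were called. Over all probe sets the block called 4.9%, 1.3% higher and 3.6% lower. SCPL27 (AT3G07990) had 6.69, 6.47 and 7.12 in the quadruple mutant, 7.26, 7.35 and 7.84 in the triple mutant and 6.97, 7.06 and 7.12 in wild type. Quadruple-mutant arrays all lay under the triple-mutant arrays, and its replicate 3 was the highest within each genotype. The log2 change was -0.72 (SE 0.18, 95% interval -1.13 to -0.32), with limma adjusted p = 0.0836 without and 0.00646 with the block.

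For scpl40 (AT3G63470) the signals were 4.35, 4.36 and 4.45 in the quadruple mutant, 4.85, 4.69 and 4.74 in the triple mutant and 4.61, 4.60 and 4.45 in wild type. The log2 change between the mutants was -0.37 (SE 0.09), with limma adjusted p = 0.0618 without and 0.0445 with the block. Its 3 quadruple-mutant arrays lay below the triple-mutant arrays, with wild type between the 2 means. In the other direction, scpl20 (AT4G12910) had 7.13, 7.64 and 7.20 in the quadruple mutant, 6.80, 6.90 and 6.93 in the triple mutant and 6.80, 6.89 and 6.67 in wild type. Quadruple-mutant arrays were the 3 highest, by 0.45 over the triple mutant (SE 0.13), with limma adjusted p = 0.151 without and 0.0462 with the block. Without quadruple-mutant replicate 2, the highest array, the change was 0.29.

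**Figure D2:**
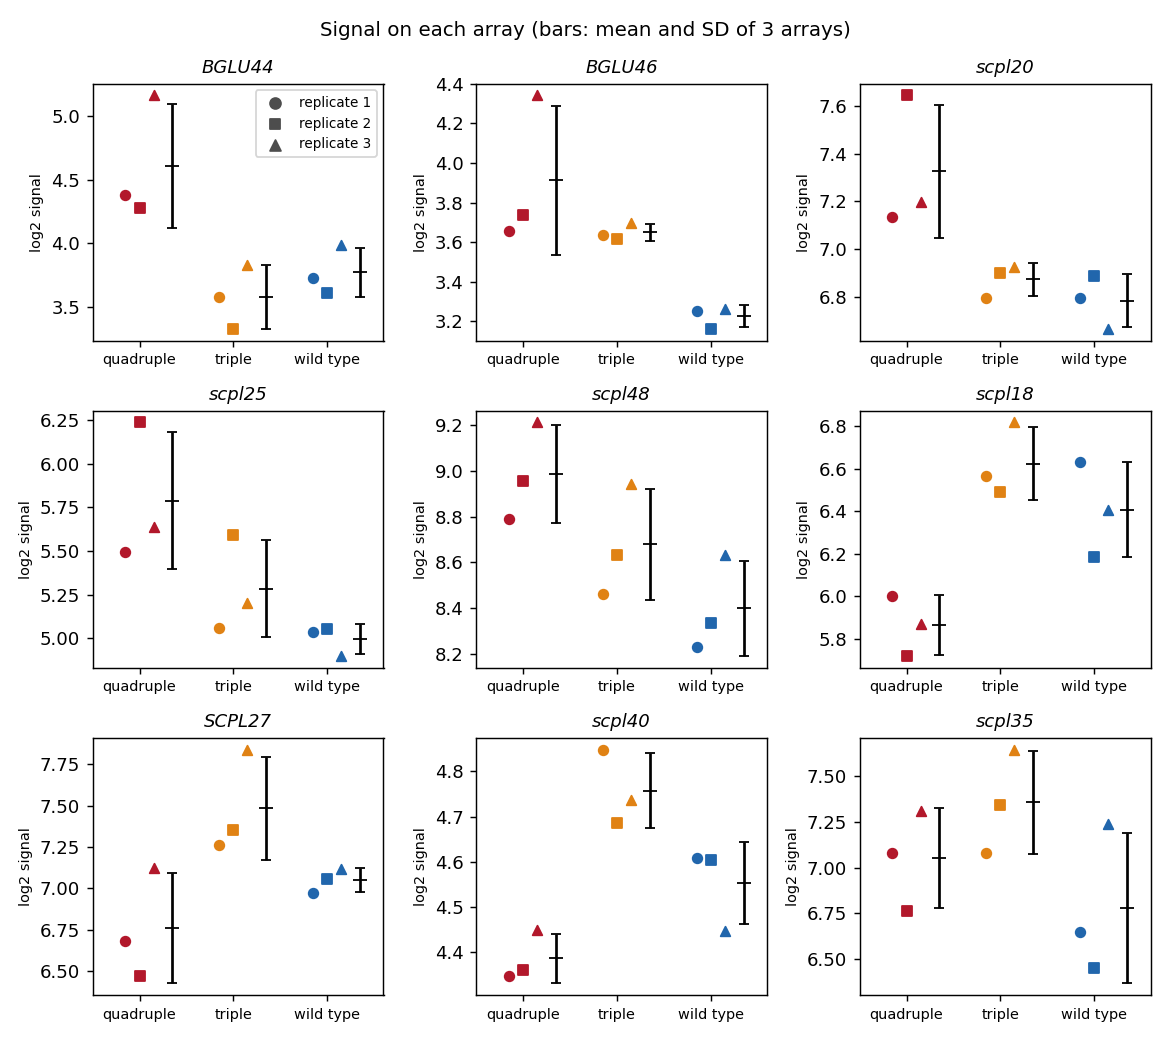
Log2 signal on each array for 2 BGLU and 7 scpl genes, chosen after their values were seen, with the quadruple mutant at the left, the triple mutant in the middle and wild type at the right of each panel. Symbols mark replicate numbers, bars give the mean and SD of 3 arrays, and vertical axes differ between panels and do not start at 0; in BGLU44 the 3 quadruple-mutant arrays lie at 4.28 or above and the other 6 arrays at 3.99 or below.

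As families, both centred near no change in this comparison. The median quadruple-minus-triple difference was 0.07 over BGLU genes and 0.01 over scpl genes, against 0.03 over all probe sets. The BGLU values ran from -0.23 for BGLU36, a relative of the myrosinases that act on glucosinolates, to 1.02 for BGLU44. Apart from BGLU44, no BGLU gene stood more than 0.26 from zero, the value of BGLU46, which was 0.047 without quadruple-mutant replicate 3. Without triple-mutant replicate 3 the value of BGLU36 was -0.086. The scpl values ran from -0.76 to 0.51, the upper end being scpl25 (AT3G02110, limma adjusted p = 0.317), at 0.28 without quadruple-mutant replicate 2. Of the 29 scpl genes, 3 differed by at least 0.5 in either direction, against 4.44% of all probe sets and 1 of 20 BGLU genes. The spread of the families was not tested against each other.

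Without a test, groups that did not overlap were as follows. Between the quadruple and the triple mutant, BGLU15, BGLU42 and BGLU44 lay wholly higher and BGLU36 wholly lower, 3 and 1 of 20, where 8.93% and 7.61% of all probe sets did so. Among scpl genes, scpl20, scpl30, scpl42 and scpl44 lay wholly higher and scpl18, SCPL27, scpl40 and scpl50 wholly lower, 4 and 4 of 29. The differences among these ranged from 0.04 for scpl44, with signals of 3.34 to 3.41 on all 9 arrays, to the changes given above. For scpl50 (AT1G15000) the signals were 6.68, 6.70 and 6.91 in the quadruple mutant, 7.03, 7.29 and 7.00 in the triple mutant and 6.96, 7.21 and 7.09 in wild type, a quadruple-minus-triple difference of -0.34 (SE 0.11, limma adjusted p = 0.211).

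**Figure D3:**
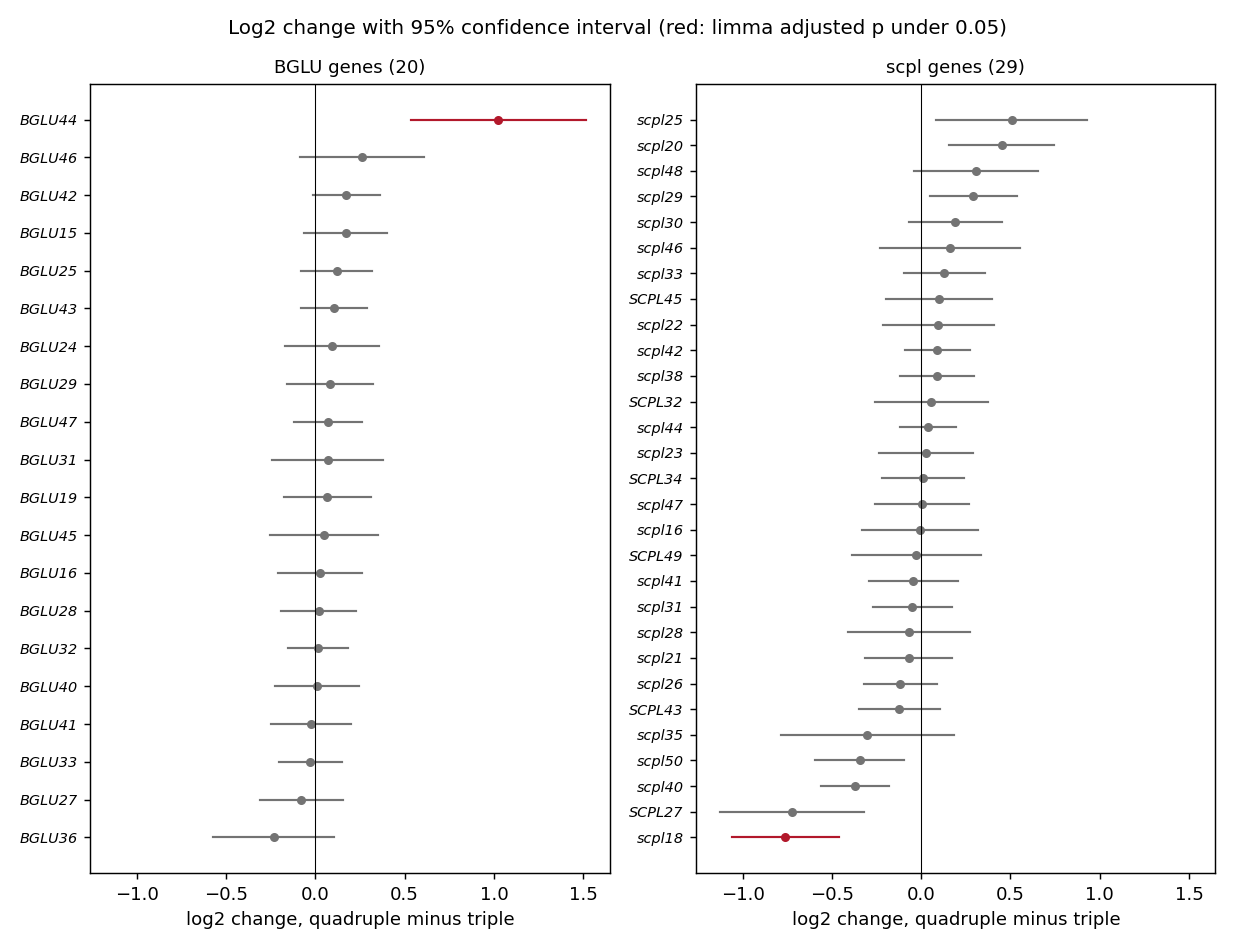
Log2 change between the quadruple and the triple mutant for the 20 BGLU genes (left) and 29 scpl genes (right), sorted by size, with 95% confidence intervals from the limma fit as lines. BGLU44 at 1.02 and scpl18 at -0.76, in red, are the 2 genes past an adjusted p of 0.05, every other BGLU interval crosses zero, and those of scpl20, scpl25, scpl29, SCPL27, scpl40 and scpl50 do not.

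Against wild type, 0 of 49 members were called in the quadruple mutant, where 0.044% of all probe sets were, 0.022% in each direction. At an unadjusted p under 0.05 there were 8 of 49 members, 3 BGLU and 5 scpl genes, or 16.3%, against 9.39% of all probe sets. These were BGLU25, BGLU44, BGLU46, scpl20, scpl25 and scpl48 on the higher side and scpl18 and scpl50 on the lower side. All 8 had quadruple-mutant and wild-type groups that did not overlap. In all, 7 of 49 members lay wholly higher and 2 wholly lower, where 7.61% and 5.17% of probe sets did. The largest differences were 0.83 for BGLU44 (SE 0.22, 95% interval 0.34 to 1.32, limma adjusted p = 0.320) and 0.79 for scpl25 (SE 0.19, 95% interval 0.37 to 1.22, limma adjusted p = 0.267).

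BGLU46 (AT1G61820), which with BGLU45 encodes glucosidases acting on the glucosides of lignin precursors, had 3.65, 3.74 and 4.34 in the quadruple mutant, 3.64, 3.62 and 3.70 in the triple mutant and 3.25, 3.16 and 3.26 in wild type. All 6 mutant arrays lay above the 3 wild-type arrays. The difference from wild type was 0.69 in the quadruple mutant (SE 0.16, 95% interval 0.34 to 1.03, limma adjusted p = 0.238) and 0.42 in the triple mutant (SE 0.16, 95% interval 0.08 to 0.77, limma adjusted p = 0.263). Both comparisons hold the same wild-type arrays. Without quadruple-mutant replicate 3, the array at 4.34, the triple-mutant difference was called at adjusted p = 0.0458, while the other 8 fits without 1 array gave 0.249 to 0.524. Neither BGLU45 (AT1G61810) nor BGLU47 (AT4G21760), a close relative of this pair, separated mutants from wild type. BGLU45 had 3.31, 3.23 and 3.29 in the quadruple mutant, 3.07, 3.30 and 3.31 in the triple mutant and 3.15, 3.68 and 3.23 in wild type, and BGLU47 lay between 3.17 and 3.44 on all arrays.

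The carboxypeptidase-like gene scpl25 had 5.49, 6.24 and 5.64 in the quadruple mutant, 5.06, 5.59 and 5.20 in the triple mutant and 5.03, 5.05 and 4.90 in wild type. The mutant arrays all lay above wild type, and the 2 mutants overlapped. The scpl48 gene (AT3G45010) had 8.79, 8.96 and 9.21 in the quadruple mutant, 8.46, 8.63 and 8.94 in the triple mutant and 8.23, 8.33 and 8.63 in wild type. Here the quadruple-mutant group stood wholly above wild type by 0.59 (SE 0.16, limma adjusted p = 0.323), with the triple mutant overlapping both. SCPL49 (AT3G10410), listed as carboxypeptidase Y, a vacuolar peptidase, had 8.79, 8.77 and 9.02 in the quadruple mutant, 8.70, 8.78 and 9.19 in the triple mutant and 8.55, 8.47 and 8.98 in wild type, with overlapping groups.

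Between the triple mutant and wild type 0 of 49 members were called, where 1.73% of all probe sets were, 1.48% higher and 0.246% lower. At an unadjusted p under 0.05 there were 4 of 49, or 8.16%, against 13.5% of all probe sets, and all 4 were higher in the triple mutant: BGLU46, SCPL27, scpl35 and scpl40. SCPL27 differed by 0.43 (SE 0.18, limma adjusted p = 0.330) and scpl40 by 0.20 (SE 0.09, limma adjusted p = 0.339), and for both the triple-mutant arrays lay wholly above wild type. Without triple-mutant replicate 3 the difference for SCPL27 was 0.26. The groups lay wholly higher for 1 BGLU and 3 scpl genes and wholly lower for 1 of each, BGLU28 and scpl44, where 7.89% and 7.06% of probe sets did so. The median difference was -0.03 over BGLU genes and -0.0013 over scpl genes, against -0.02 over all probe sets. Between the quadruple mutant and wild type it was 0.01 over BGLU genes and -0.0011 over scpl genes, against 0.0049 over all probe sets.

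At the low end of the triple-minus-wild-type differences, values were small and the groups mostly overlapped. BGLU28 had 3.58, 3.69 and 3.38 in the quadruple mutant, 3.60, 3.51 and 3.49 in the triple mutant and 3.68, 3.76 and 3.72 in wild type, a triple-minus-wild-type difference of -0.19 (95% interval -0.40 to 0.03, limma adjusted p = 0.435). SCPL32 (AT1G61130) had 3.94, 4.07 and 3.88 in the quadruple mutant, 3.95, 3.94 and 3.83 in the triple mutant and 3.78, 4.42 and 4.16 in wild type, a difference of -0.22 (95% interval -0.53 to 0.10). In SCPL32 the wild-type arrays were the widest apart and covered the range of both mutants. The scpl41 gene (AT5G42230) had 3.29, 3.34 and 3.38 in the quadruple mutant, 3.33, 3.43 and 3.38 in the triple mutant and 3.31, 3.77 and 3.57 in wild type, with a triple-minus-wild-type difference of -0.17 (95% interval -0.42 to 0.08). Wild-type replicate 2 was the highest array for both SCPL32 and scpl41, and without it their differences were -0.066 and -0.060.

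BGLU36 (AT1G51490) had 3.24, 3.31 and 3.35 in the quadruple mutant, 3.40, 3.38 and 3.82 in the triple mutant and 3.23, 3.60 and 3.08 in wild type. Triple-mutant replicate 3 stood apart from its group, and without the arrays numbered 3 the triple-minus-wild-type difference was -0.031, against 0.23 with them. BGLU19 (AT3G21370) had 3.97, 3.58 and 3.64 in the quadruple mutant, 3.63, 3.70 and 3.66 in the triple mutant and 3.64, 3.48 and 3.54 in wild type. BGLU27 (AT3G60120) had 3.58, 3.60 and 3.46 in the quadruple mutant, 3.60, 3.61 and 3.67 in the triple mutant and 3.42, 3.53 and 3.80 in wild type. For BGLU19 and BGLU27 all 3 genotypes overlapped, and each of their differences was 0.18 or less in size.

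With the replicate block, scpl35 (AT5G08260) was the 1 member called between the triple mutant and wild type, where 5.06% of all probe sets were, 4.14% higher and 0.928% lower. It had 7.08, 6.76 and 7.31 in the quadruple mutant, 7.08, 7.34 and 7.64 in the triple mutant and 6.65, 6.45 and 7.24 in wild type. The groups overlapped, and replicate 3 was the highest in each genotype. Within each replicate number the triple mutant stood above wild type. The log2 change was 0.58 (SE 0.22, 95% interval 0.09 to 1.06), with limma adjusted p = 0.280 without and 0.0249 with the block.

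Replicate number ran through several members. For 3 of 20 BGLU genes and 7 of 29 scpl genes, replicate 3 was the highest array in all 3 genotypes, against 11.3% of all probe sets. These were BGLU42, BGLU44, BGLU46, SCPL27, scpl29, scpl35, SCPL45, scpl46, scpl48 and SCPL49. In SCPL45 (AT1G28110), for example, replicate 3 stood at 8.99 in the quadruple mutant, 8.88 in the triple mutant and 8.93 in wild type, above 8.49 to 8.75 on the other 6 arrays. With ties not counted, replicate 2 was the highest throughout for scpl21, scpl25 and SCPL43, 3 of 49 genes, against 7.31% of all probe sets, and replicate 1 for 0 of 49, against 2.87%. What the number stands for is not given in the sources used here.

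**Figure D4:**
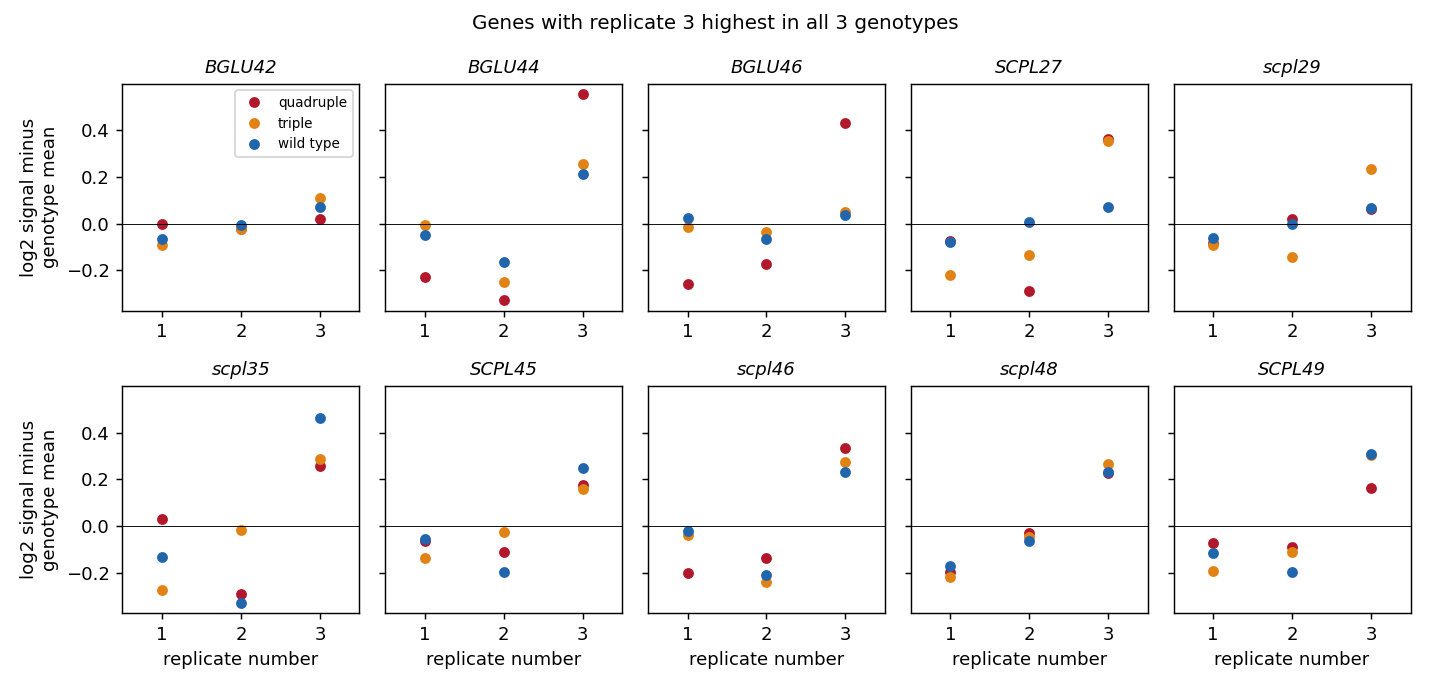
Deviation of each array from the mean of its genotype, in log2 units, against replicate number for the 10 genes whose replicate 3 was the highest in all 3 genotypes, a choice made from these values. Points are the quadruple mutant, the triple mutant and wild type. In scpl48 the 3 genotypes deviate by similar amounts.

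For most members the intervals were narrow, but a narrow interval for a dim gene is not evidence of an unchanged transcript. A mean under 5 was found for 16 of the 20 BGLU genes and 14 of the 29 scpl genes. In 17 of 20 BGLU genes and 17 of 29 scpl genes, the 95% intervals of all 3 comparisons lay within 0.5 of zero on the log2 scale. Among them were BGLU33 (AT2G32860), an enzyme that frees abscisic acid from its glucose ester, with 2.90, 2.96 and 2.93 in the quadruple mutant, 2.96 on all 3 triple-mutant arrays and 2.93, 3.06 and 3.12 in wild type, and BGLU28 (AT2G44460), known from glucosinolate turnover under low sulfur. BGLU32 (AT5G24550), which with BGLU33 gave the lowest mean signals of its family, had 3.08, 3.08 and 3.09 in the quadruple mutant, 3.08, 2.99 and 3.13 in the triple mutant and 3.09, 3.11 and 3.08 in wild type. Among scpl genes the lowest mean signal was that of scpl38 (AT2G05850), which had 3.12, 3.04 and 3.04 in the quadruple mutant, 2.84, 3.04 and 3.06 in the triple mutant and 2.98, 3.19 and 3.04 in wild type. Genotypes overlapped for all 3. Next to it, scpl30 (AT4G15100) had 3.40, 3.22 and 3.20 in the quadruple mutant, 3.18, 2.88 and 3.18 in the triple mutant and 3.01, 3.32 and 3.21 in wild type, with quadruple-mutant arrays above the triple-mutant arrays by 0.19 (95% interval -0.07 to 0.45). How much of such dim signals comes from the named transcript was not tested.

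Of the 5 scpl genes with the highest mean signal, scpl48 and SCPL49 are described above, and none of the 5 was called. The scpl29 gene (AT4G30810) had 9.87, 9.97 and 10.01 in the quadruple mutant, 9.56, 9.51 and 9.89 in the triple mutant and 9.76, 9.83 and 9.89 in wild type. Its quadruple-minus-triple difference was 0.29 (95% interval 0.05 to 0.53, limma adjusted p = 0.303), with triple-mutant replicate 3 reaching the lowest quadruple-mutant array. SCPL45 had 8.75, 8.71 and 8.99 in the quadruple mutant, 8.58, 8.69 and 8.88 in the triple mutant and 8.63, 8.49 and 8.93 in wild type. The scpl26 gene (AT2G35780) had 8.49, 8.31 and 8.33 in the quadruple mutant, 8.56, 8.47 and 8.45 in the triple mutant and 8.39, 8.48 and 8.61 in wild type. SCPL45 and scpl26 showed overlap between all genotypes.

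Genes around the families were thinly covered. The 97 genes on 5 related lists include the members BGLU45, BGLU46 and BGLU47, which are described above. Outside the members, 17 of the listed genes were measured and 0 were called in any of the 3 comparisons (limma adjusted p under 0.05). At an unadjusted p under 0.05 there were 2 of the 17 between quadruple and triple mutants, where 10.9% of all probe sets were, 3 between the quadruple mutant and wild type, where 9.39% were, and 5 between the triple mutant and wild type, where 13.5% were. PYK10 (AT3G09260), also called BGLU23 and known as the main glucosidase of root endoplasmic reticulum bodies, had 12.18, 12.39 and 12.47 in the quadruple mutant, 12.30, 12.30 and 12.72 in the triple mutant and 12.04, 11.88 and 12.30 in wild type, with overlapping groups. NAI2, needed to form these bodies, had means of 10.90 in the quadruple mutant, 10.96 in the triple mutant and 10.90 in wild type. NAI1, the transcription factor that controls them, had means of 7.57 in the quadruple mutant, 7.73 in the triple mutant and 7.49 in wild type. The glucosinolate transporter gene GTR2 (AT5G62680) had means of 6.00 in the quadruple mutant, 5.84 in the triple mutant and 5.26 in wild type. Its triple-minus-wild-type difference was 0.58, with limma adjusted p = 0.167 without and 0.0455 with the replicate block. The 7 phenylpropanoid and sinapate ester genes measured outside the members had median differences of -0.02 between the quadruple and the triple mutant. They were -0.02 between the quadruple mutant and wild type and -0.07 between the triple mutant and wild type.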

How the data were processed

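The authors deposited log2 signals, 1 for each probe set on each array, and the submitters' processing notes name Affymetrix Expression Console, RMA and limma, without versions. RMA normalizes arrays to a common distribution, so changes are relative to other transcripts. Of 22810 probe sets, 64 controls were left out and 22746 were tested; 13513 have 1 gene in the platform annotation, 503 several and 8730 are not listed. Current symbols came from RefSeq TAIR10.1 by Entrez identifier, and its gene order by start position gave the neighbours. No sequences were used.

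Genotype means were fitted over all 9 arrays with limma 3.58.1 in R 4.3.3 (6 residual degrees of freedom), with Benjamini-Hochberg adjustment within each comparison. The fit was tested on simulated data. The members, lists and tests were chosen with earlier results of these data known. Any member could be named. Array values were given for called members, for the 3 highest and 3 lowest changes of each family and comparison, for the 5 brightest and 2 dimmest members of each family, and for others where a group pattern is described. Replicate numbers come from the titles. The size of the correlations given with the results decided where they were read as pairs, without a test or a stated cut-off. Alternatives were the replicate block, quantile normalization, median centring, a minimum mean of 5, robust estimation with a variance trend, array weights, the 6 arrays compared, a 2-fold minimum and leaving out each array. Leaving out the 3 arrays numbered 3 was chosen after seeing the data. Precision is limited by the number of arrays.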

Additional observations from a re-analysis of the deposited data

How the results depend on the processing

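Of 37 member changes recomputed under the alternatives, all but 2 kept their direction, and neither of the 2 was called: BGLU36 between the triple mutant and wild type turned to -0.031 without the 3 arrays numbered 3, and BGLU45 between the quadruple mutant and wild type ran from -0.18 to 0.085 when 1 array was left out, positive without wild-type replicate 2. The fit reported called 393 probe sets between the triple mutant and wild type, 10 between the quadruple mutant and wild type and 504 between the mutants. With the replicate block, 1152 probe sets and 1 scpl gene were called between the triple mutant and wild type, 67 probe sets, 1 BGLU gene and 2 scpl genes between the quadruple mutant and wild type, and 1114 probe sets and 4 scpl genes between the quadruple and the triple mutant. Replicate numbers were not read as pairs between the quadruple mutant and wild type. The members called there by the block were BGLU44 (limma adjusted p = 0.0265), scpl25 (0.0455) and scpl48 (0.0213). Of the quiescent-centre and stem-cell markers, the block called AGL42 (limma adjusted p = 0.0251) and BBM (0.0325) there, but not JKD (0.879). With array weights, 1663 probe sets and 6 scpl genes were called between the mutants. Over the 6 arrays compared, 167 probe sets were called between the triple mutant and wild type, 5 between the quadruple mutant and wild type, and 0 BGLU genes between the mutants. Quantile normalization and a minimum mean of 5, which removes BGLU44, also left 0 BGLU genes there. A 2-fold minimum left 135, 5 and 164 probe sets in the triple against wild type, the quadruple against wild type and the quadruple against the triple mutant, and 0 scpl genes in the last. Without the 3 arrays numbered 3 the counts were 166 and 2 probe sets for the triple and quadruple mutants against wild type. The members called between the mutants were then BGLU44 and SCPL27.

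With 1 array left out, counts of probe sets ran from 182 to 647 for the triple mutant against wild type, the highest without wild-type replicate 1, from 4 to 59 for the quadruple mutant against wild type, the highest again without wild-type replicate 1, and from 220 to 610 between the mutants. Counts of BGLU genes ran from 0 to 1 for the triple mutant against wild type, the 1 being BGLU46, and from 0 to 1 between the mutants, and counts of scpl genes between the mutants from 0 to 2. Median centring moved the median of all probe sets to -0.12 for the triple mutant and -0.08 for the quadruple mutant against wild type. Over BGLU genes the medians became -0.13 and -0.078, and over scpl genes -0.10 and -0.090. The quadruple-minus-wild-type median over BGLU genes was 0.044 after quantile normalization, 0.046 over the 4 genes with a mean of at least 5, 0.041 without the arrays numbered 3, and -0.0046 to 0.056 with 1 array left out. Over the 15 scpl genes with a mean of at least 5 it was 0.12, and the quadruple-minus-triple median over the 4 such BGLU genes was 0.14. The causes of these shifts were not tested. No gene had a second probe set, so that alternative was not run. Dim signals limit the 16 BGLU and 14 scpl genes with a mean under 5.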

Other observations

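Probe sets shared by several genes were left out of the comparisons, and 3 of them hold members of these families. The probe set of BGLU21 and BGLU22, root glucosidases close to PYK10 that act on coumarin glucosides, had log2 signals of 12.33, 12.41 and 12.45 in the quadruple mutant, 12.55, 12.31 and 13.00 in the triple mutant and 12.29, 11.82 and 12.56 in wild type. The groups overlapped, and its differences were -0.22 between the quadruple and the triple mutant (95% interval -0.66 to 0.22), 0.17 between the quadruple mutant and wild type (95% interval -0.27 to 0.62) and 0.40 between the triple mutant and wild type (95% interval -0.05 to 0.84). The probe set of scpl36 and scpl37 and that of scpl39 with AT3G56540 had genotype means between 3.43 and 3.55, and none of the 3 probe sets was called in any comparison (limma adjusted p of 0.426 or above).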
